A study of Drosophila melanogaster with 24 samples.

Results

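The genomic occupancy of Ada2b was compared with that of Sgf11, using every peak of 4 libraries of Ada2b (numbers 1530_1, 1530_2, 1530_3 and 1760_2) and 3 of Sgf11 (1377_1, 1377_2 and 1924_2), chosen by the factor and number on their labels. These are 7 of the 14 chromatin immunoprecipitation sequencing (ChIP-seq) libraries with a peak list, in a series of 24 samples that also holds 10 total chromatin libraries, and they carry 29781 of 83085 peaks (12149 of Ada2b and 17632 of Sgf11). All were made from Drosophila melanogaster embryos aged 1 to 3 h, at stages 4 to 6, whose strain was not given. Ada2b was precipitated with 20 µg of a rabbit antibody raised against residues 1 to 330 of the protein, and Sgf11 with 10 µg of a rabbit antibody raised against the full-length protein. The chromatin came from whole embryos, so a peak is an average over their cell types. The first part of a library number is taken here as a library set. No set held both factors (1530 and 1760 held Ada2b, 1377 and 1924 held Sgf11), so factor, antibody and set cannot be told apart. Nothing states that libraries of a factor came from separate embryo collections, and the p-values measure only the spread between these libraries.

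SAGA is a large coactivator that is recruited to genes and modifies the histones of their chromatin. It is built from modules with separate enzymatic activities. Ada2b is an adaptor in the histone acetyltransferase (HAT) module, where it joins the acetyltransferase Gcn5 to Ada3 and Sgf29. Sgf11 belongs to the deubiquitinase (DUB) module, in which it sits beside the ubiquitin protease Non-stop that removes ubiquitin from histone H2B. Spt3 lies in a part of SAGA that contacts the TATA-binding protein, and RNA polymerase II (Pol II) marks transcribed or paused genes. Where both modules sit on chromatin as parts of whole SAGA their peaks should coincide, and the comparison asks how far they do, in each direction.

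Ada2b gave the shorter lists with the lower enrichment. The 4 Ada2b libraries had 3262, 1878, 1563 and 5446 peaks, and the 3 Sgf11 libraries had 4972, 6787 and 5873. The ranges overlapped, because Ada2b 1760_2 was longer than Sgf11 1377_1, and the difference of -1.12 on the log2 scale did not pass the test (exact two-sided permutation of the 7 libraries, p = 0.0857, adjusted 0.157 over 11 library tests). With 35 relabellings of 4 and 3 libraries, no p below 0.0286 could be reached. None of the 11 tests passed 0.05 after adjustment by Benjamini and Hochberg, and 3 of them (X share, fold enrichment and summit distance) were below 0.05 before it. Ada2b 1760_2 was the longest Ada2b list and covered the largest share of the Sgf11 peaks, although the share of its own peaks found in Sgf11 lists was the lowest of the 4. Without it the log2 differences were -1.46 in peak number, -1.62 in bases covered and -0.36 in summit distance (described below), each at an exact permutation p of 0.1, the smallest that 3 against 3 allow. Reads were not part of the lists, so the depth is unknown, and a site without a peak may hold weak binding below the limit of the peak caller.

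Fold enrichment, the ratio of ChIP signal to the background of the peak caller at the summit, separated the factors completely. Its median per library was 2.77, 2.78, 2.80 and 2.76 in Ada2b and 4.24, 4.81 and 5.18 in Sgf11, so the 4 Ada2b libraries lay close together and below every Sgf11 library. The ratio of the factors was 0.588 (log2 difference of -0.77, exact permutation p = 0.0286, the smallest possible, adjusted 0.105). The strongest single peak reached 11.97 to 12.9 in the Ada2b libraries and 18.0 to 27.9 in the Sgf11 libraries. When each list was cut to its 1563 highest-scoring peaks, the length of the shortest, the medians were 4.01, 3.01, 2.80 and 5.02 in Ada2b and 8.85, 14.0 and 13.8 in Sgf11 (log2 difference of -1.73, exact permutation p = 0.0286, adjusted 0.0629). The cut kept 47.9, 83.2, 100 and 28.7% of the Ada2b lists and 31.4, 23.0 and 26.6% of the Sgf11 lists. Keeping a smaller share of a list raises its median, so the size of this difference follows in part from the cut. Ada2b 1760_2 was cut to a share within the Sgf11 range and stayed below every Sgf11 library. These unlike shares apply to every comparison at 1563 peaks below.

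Widths were less distinct. The median peak was 342.5, 329, 318 and 383 bp wide in Ada2b and 466, 500 and 330 bp in Sgf11. Sgf11 1924_2 lay inside the Ada2b range, and the difference was not detected (log2 -0.31, exact permutation p = 0.171, adjusted 0.236; -0.61 with 1563 peaks a library, exact permutation p = 0.114). The widest peaks ran the other way, at 11868, 11879, 11871 and 8143 bp in Ada2b and 6060, 6381 and 4133 bp in Sgf11. Peaks covered 1.33, 0.844, 0.673 and 2.49 Mb in Ada2b and 2.60, 3.88 and 2.20 Mb in Sgf11 (exact permutation p = 0.0857, adjusted 0.157).

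**Figure D1:**
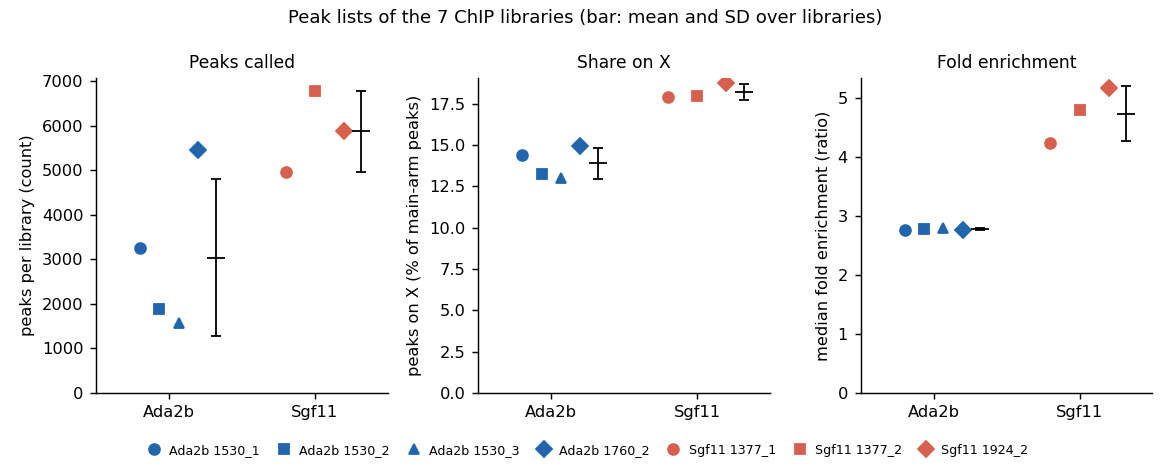
Number of peaks, share of main-arm peaks on X (%) and median fold enrichment (ratio), 1 point per library, Ada2b left and Sgf11 right, with mean and SD over libraries. The peak numbers of the factors overlap, whereas every Ada2b library lies below every Sgf11 library in X share (13.0 to 14.9% and 17.9 to 18.8%) and in fold enrichment (2.76 to 2.80 and 4.24 to 5.18).

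The X chromosome held a smaller share of Ada2b peaks than of Sgf11 peaks. Of the peaks on the main arms (2L, 2R, 3L, 3R, 4 and X), 14.4, 13.3, 13.0 and 14.9% lay on X in the Ada2b libraries, and 17.9, 18.0 and 18.8% in the Sgf11 libraries. The difference was -4.32 percentage points with no overlap between factors (exact permutation p = 0.0286, adjusted 0.105), and it stayed between -4.66 and -4.01 points whichever library was left out. With 1563 peaks a library the shares were 16.3, 14.8, 13.0 and 17.2% in Ada2b and 19.7, 20.2 and 21.7% in Sgf11. Libraries of other factors in the same sets gave 12.6, 12.2 and 16.9% (Spt3 1530_1, 1530_2 and 1760_2) and 16.5 and 16.8% (Non-stop 1924_1 and 1924_2), so Sgf11 1924_2 was above the Non-stop libraries of its own set, Ada2b 1760_2 was below the Spt3 library of its own number, and Ada2b 1530_1 and 1530_2 were above those of theirs.

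Median fold enrichment on X was higher than on the large autosome arms in each of the 7 libraries. Ada2b peaks on X had a median fold enrichment of 3.06, 2.99, 2.91 and 3.06, against 2.72, 2.74, 2.82 and 2.71 on 2L, 2R, 3L and 3R. In Sgf11 the X medians were 4.99, 5.96 and 6.24 and the autosome medians 4.20, 4.76 and 5.08. By score percentile within the library (100 is the strongest peak), the median X peak stood at 56.0, 54.0, 48.8 and 56.3 in Ada2b. The median autosome peak stood at 48.5, 47.8, 49.9 and 48.7, so Ada2b 1530_3 went the other way. In Sgf11 these percentiles were 56.0, 56.1 and 55.5 on X and 49.8, 49.9 and 49.3 on the autosomes. Among the 10% of peaks with the highest score, X held 15.9, 13.5, 11.9 and 15.9% in Ada2b and 20.9, 22.4 and 24.1% in Sgf11. The X share was higher among these strong peaks than in the whole list in all 3 Sgf11 libraries and in 3 of the 4 Ada2b libraries, 1530_3 being the exception.

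No difference in peak share was detected on chromosome 4, the small heterochromatin-rich autosome, in whole lists. It held 2.03, 1.72, 2.02 and 1.89% of main-arm peaks in Ada2b and 1.84, 2.05 and 1.33% in Sgf11 (difference 0.177 points, exact permutation p = 0.457, adjusted 0.559). With 1563 peaks a library it held 2.65, 2.08, 2.02 and 2.83% in Ada2b and 2.01, 1.94 and 0.839% in Sgf11, without overlap (difference 0.802 points, exact permutation p = 0.0571, adjusted 0.105). The rank of those peaks differed more. Scores were ranked within each library as percentiles, where 100 is the strongest peak. The median peak on chromosome 4 stood at percentile 66.0, 67.1, 61.6 and 61.0 in the Ada2b libraries and at 53.7, 48.3 and 42.9 in the Sgf11 libraries, without overlap (not tested). Sequences off the main arms held 3.53, 4.10, 4.99 and 2.88% of all peaks in Ada2b and 3.98, 4.99 and 2.50% in Sgf11 (difference 0.05 points, exact permutation p = 0.914). That picture depended on the weaker peaks, since among the 1563 strongest peaks they held 3.58, 4.54, 4.99 and 2.82% in Ada2b and 1.09, 0.960 and 0.896% in Sgf11 (difference 3.00 points, exact permutation p = 0.0286, adjusted 0.0629).

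Most Ada2b peaks had a Sgf11 peak, while fewer Sgf11 peaks had an Ada2b peak. Over the 12 pairs of an Ada2b and a Sgf11 library, with 1 bp of overlap counted as shared, 71.6 to 92.2% of Ada2b peaks overlapped the Sgf11 list and 19.0 to 76.9% of Sgf11 peaks overlapped the Ada2b list. The mean over the Sgf11 lists was 85.6, 77.3, 79.4 and 76.8% for the 4 Ada2b libraries (79.8 ± 4.04%, SD, n = 4), and the mean over the Ada2b lists was 45.8, 37.5 and 40.4% for the 3 Sgf11 libraries (41.2 ± 4.20%, SD, n = 3). The difference between directions was 38.5 percentage points (exact permutation p = 0.114, adjusted 0.18), and 49.6 points without Ada2b 1760_2 (exact permutation p = 0.1, the smallest that 3 against 3 allow). The low shares belonged to pairs with the short Ada2b lists. The share of Sgf11 peaks in Ada2b 1760_2 was 76.9, 66.4 and 70.7%, whereas in Ada2b 1530_3 it was 24.4, 19.0 and 20.7%.

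Lists of equal length give nearly equal shares in both directions by construction, since few peaks overlap more than 1 peak, so they bear on the level of overlap and not on its direction. With 1563 peaks in each, 55.7, 47.7, 45.1 and 57.1% of the Ada2b peaks overlapped a Sgf11 list on average, against 53.1, 52.4 and 45.9% of the Sgf11 peaks in the other direction. The difference between directions was then 0.922 points. At equal length 36.6, 46.6, 49.5 and 35.1% of Ada2b peaks overlapped no Sgf11 list at all, and 35.6, 36.7 and 43.6% of Sgf11 peaks overlapped no Ada2b list.

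**Figure D2:**
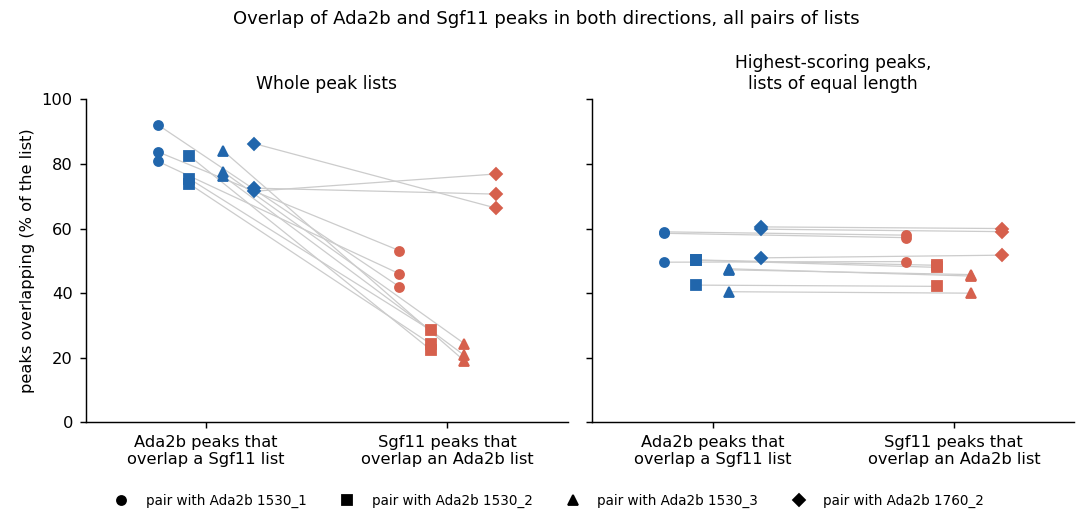
Percent of Ada2b peaks that overlap a Sgf11 list (left) and of Sgf11 peaks that overlap an Ada2b list (right) for each of 12 pairs of libraries, joined by a line, with marker shape giving the Ada2b library; whole lists are in the left panel and lists of 1563 peaks in the right panel. Pairs with the Ada2b 1530 libraries slope down steeply in whole lists, pairs with Ada2b 1760_2 less so, and at equal length all 12 pairs are nearly flat, as equal numbers impose, at levels between 40.0 and 60.5%.

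Library lists of the same factor overlapped more than lists of different factors, though not by a margin that passed the test. The Jaccard index, base pairs shared over base pairs in either list, was 0.401 ± 0.155 over 6 Ada2b pairs (SD), 0.560 ± 0.079 over 3 Sgf11 pairs and 0.287 ± 0.138 over the 12 mixed pairs. Pairs of the same factor exceeded mixed pairs by 0.167 (exact permutation p = 0.0571, adjusted 0.157). All mixed pairs, but not all pairs of the same factor, come from different sets, and with pairs of different sets alone the excess was 0.107 (exact permutation p = 0.0571), where the 3 Ada2b pairs averaged 0.311. Ada2b 1760_2 stood apart here. Its index was 0.489, 0.483 and 0.458 with the Sgf11 libraries, above its 0.251 and 0.214 with Ada2b 1530_2 and 1530_3 and close to its 0.469 with Ada2b 1530_1. Without Ada2b 1760_2 the excess of same-factor pairs was 0.302 (exact permutation p = 0.1, the smallest that 3 against 3 allow), and with 1563 peaks a library it was 0.271 (exact permutation p = 0.0286, adjusted 0.0629). At equal length, Ada2b 1760_2 had an index of 0.599 with Ada2b 1530_1, 0.347 with 1530_2 and 0.314 with 1530_3. With the Sgf11 libraries its index was 0.354, 0.323 and 0.286. By this index, apart from 1530_1, it was no closer to its own factor than to Sgf11 1377_1. By share of peaks it was closer, as 86.9, 67.3 and 62.1% of its 1563 peaks overlapped Ada2b 1530_1, 1530_2 and 1530_3. Its shares in Sgf11 1377_1, 1377_2 and 1924_2 were 60.5, 59.8 and 50.9%.

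Summits of overlapping peaks lay close together, and slightly closer within a factor than between factors. The median distance between summits averaged 24.3 ± 2.58 bp over Ada2b pairs (SD, 6 pairs), 26.3 ± 7.02 bp over Sgf11 pairs (SD, 3 pairs) and 30.7 ± 2.60 bp over mixed pairs (SD, 12 pairs, 27.0 to 36.5 bp). Same-factor pairs were at 0.807 of the distance of mixed pairs (log2 difference of -0.31, exact permutation p = 0.0286, adjusted 0.105), and pairs of different sets alone gave a log2 difference of -0.16. Summits lay within 50 bp of each other in 70.5% of overlapping Ada2b pairs of peaks, 70.9% of Sgf11 pairs and 64.9% of mixed pairs, and over 500 bp apart in 3.20, 3.03 and 3.67%. A distance of this size is short against the 50-bp reads and the peak widths. Of the Sgf11 pairs, 1377_2 with 1924_2 had a median of 33.0 bp, within the range of mixed pairs.

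**Figure D3:**
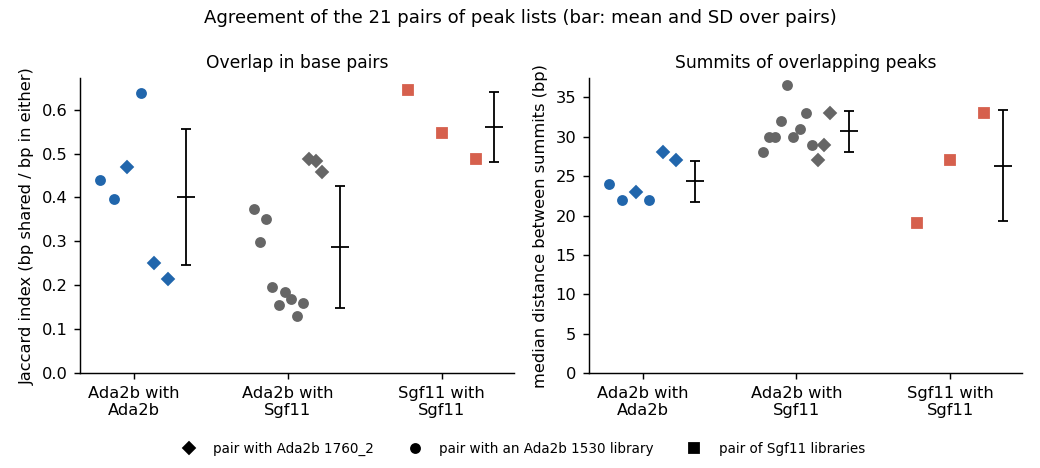
Jaccard index (left) and median summit distance in bp (right) for the 21 pairs of libraries, grouped as Ada2b with Ada2b, Ada2b with Sgf11 and Sgf11 with Sgf11, with mean and SD over pairs; diamonds mark pairs that include Ada2b 1760_2. The 3 mixed pairs with Ada2b 1760_2 reach 0.458 to 0.489, and mean summit distances are 24.3, 30.7 and 26.3 bp in the order of the groups.

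A peak rarely split into several of the other factor. Of the Ada2b peaks that overlapped a Sgf11 list, 2.32 ± 1.22% held 2 or more Sgf11 peaks (SD, 12 pairs, at most 8 in a single peak), which is 1.81 ± 0.879% of all Ada2b peaks. Of the Sgf11 peaks that overlapped an Ada2b list, 3.38 ± 1.92% held 2 or more Ada2b peaks (SD, 12 pairs, at most 4), which is 1.42 ± 1.20% of all Sgf11 peaks. Peaks without any list of the other factor differed in how far away the nearest one was. For Ada2b the median gap to the nearest Sgf11 peak of any library was 2069, 1850, 2448 and 1927 bp, and 33.7, 34.8, 30.3 and 33.4% lay within 1 kb. For Sgf11 the gap to the nearest Ada2b peak was 5676.5, 5413.5 and 5066 bp, and 13.2, 13.6 and 19.6% lay within 1 kb. Since Sgf11 had more peaks to be near to, the gaps of the factors are not measured against equal densities.

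Sharing was tied to score in both factors. Peaks that overlapped 2 or more libraries of the other factor had a higher median percentile than peaks that overlapped none, by 32.8, 30.0, 21.5 and 44.2 points in the Ada2b libraries (mean 32.1 ± 9.38, SD, n = 4) and by 32.8, 38.9 and 29.1 points in the Sgf11 libraries (mean 33.6 ± 4.97, SD, n = 3). The direction was the same in 4 of 4 and 3 of 3 libraries, and exact two-sided sign-flip permutation gave the smallest p that each group size allows, which is above 0.05 for both (0.25 for 3 libraries). The factors themselves were not told apart (difference of -1.51 points, exact permutation p = 0.657, adjusted 0.723). It was 3.91 points in lists of equal length and -9.93 points without Ada2b 1760_2. Peaks that overlapped 2 or more libraries had median widths of 353, 329, 315 and 414 bp in Ada2b and 567, 659 and 382 bp in Sgf11. Peaks that overlapped none had 267.5, 317, 316 and 271 bp in Ada2b and 328, 346 and 272 bp in Sgf11. Wider peaks meet a list more easily, and score and width were not separated here.

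The strongest Ada2b peaks fell into different patterns by library. Among the 25% of peaks with the highest score, 2 of 816 peaks of Ada2b 1530_1 (0.245%) and 2 of 1364 of Ada2b 1760_2 (0.147%) overlapped no Sgf11 list, against 38 of 469 in Ada2b 1530_2 (8.10%) and 36 of 391 in Ada2b 1530_3 (9.21%). In the lowest 25% the shares were 13.9, 30.9, 24.7 and 30.6% in libraries 1530_1, 1530_2, 1530_3 and 1760_2. Sgf11 peaks without any Ada2b list made up 2.66, 5.95 and 8.44% of the highest 25% and 34.0, 50.9 and 41.0% of the lowest 25%. The decline with score was therefore present in all 7 libraries, and above the lowest 25% it was small in Ada2b 1530_2 and 1530_3.

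**Figure D4:**
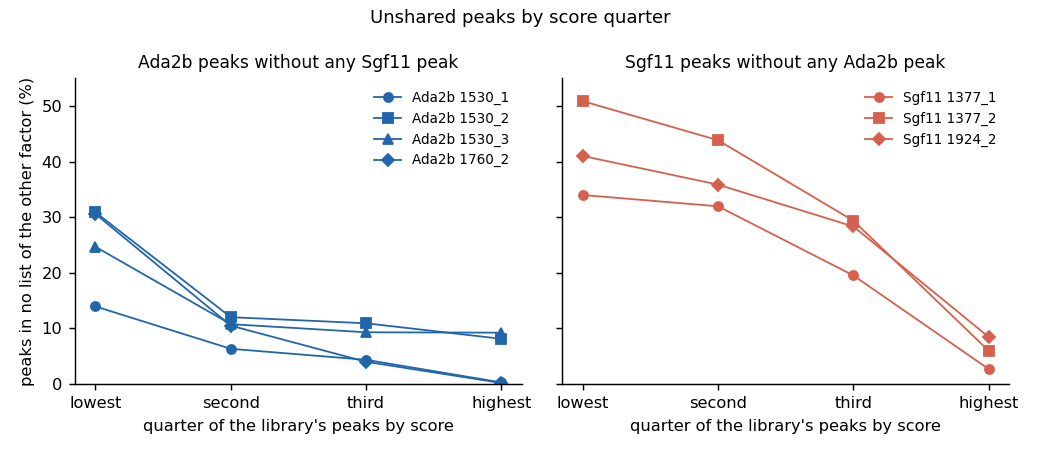
Percent of peaks in no list of the other factor, in 4 bins of equal size made from the library's own peaks ranked by score, with 1 line per library, for Ada2b peaks (left) and Sgf11 peaks (right). Ada2b 1530_1 and 1760_2 fall to 0.245 and 0.147% in the highest bin, Ada2b 1530_2 and 1530_3 stay at 8.10 and 9.21%, and the Sgf11 libraries fall from between 34.0 and 50.9% to between 2.66 and 8.44%.

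The strong unshared Ada2b peaks recurred across the Ada2b libraries. Of the 38 in Ada2b 1530_2, all 38 had a peak in 1530_3, 35 in 1530_1 and 36 in 1760_2, at a median percentile of 80.4 in 1530_3, 56.0 in 1530_1 and 50.6 in 1760_2. Their high rank in 1530_2 was set by the selection. They also ranked high in 1530_3, and in the middle of the list in 1530_1 and 1760_2. Peaks of both Non-stop libraries overlapped 38 of these 38, those of any Spt3 library 2 and those of any Pol II library 7. The 36 of Ada2b 1530_3, of which 35 had a peak in 1530_2, gave 35, 4 and 7. Non-stop, the enzyme of the module of Sgf11, was therefore called at nearly all of them. Its lists of 8558 and 12073 peaks are longer than any Sgf11 list. Both Non-stop libraries also had a peak at 97.1% of the 992 sites with a peak in all 7 libraries (described below). Non-stop was not counted over all strong Ada2b peaks, so whether the unshared ones differ from the rest in Non-stop was not tested. Set 1924 held Non-stop as well as Sgf11 1924_2.

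Strong Sgf11 peaks without Ada2b had another neighbourhood. In the highest 25% there were 33, 101 and 124 in libraries 1377_1, 1377_2 and 1924_2. Of these, 42.4, 35.6 and 37.1% lay on X, against 20.5, 20.5 and 21.4% of all main-arm Sgf11 peaks in the highest 25%. Any Spt3 library had a peak at 93.9, 94.1 and 84.7% of them, any Non-stop library at 97.0, 99.0 and 98.4%, and any Pol II library at 90.9, 96.0 and 87.1%. Spt3 in 2 or more libraries was found at 1, 6 and 7 of them, and at none of the strong Ada2b peaks without Sgf11, so at most of these Sgf11 peaks Spt3 was called in 1 library only. Over all peaks in the highest 25%, any Spt3 library had a peak at 97.5, 84.4, 84.1 and 96.4% in Ada2b and 99.3, 98.5 and 97.8% in Sgf11. Spt3 in 2 or more libraries was at 72.1, 73.1, 73.9 and 64.0% in Ada2b and 71.0, 61.2 and 61.5% in Sgf11, and any Pol II library at 69.7, 56.3, 54.2 and 75.4% in Ada2b and 81.5, 83.8 and 84.7% in Sgf11. The same count over all peaks was not made for Non-stop. Spt3 came from the sets of Ada2b and not from those of Sgf11.

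Unshared peaks fell on X in opposite proportions. On X, 3.09, 10.5, 9.84 and 8.35% of the Ada2b peaks overlapped no Sgf11 list, below the 6.77, 16.1, 13.2 and 12.1% on the large autosome arms in each of the 4 libraries. Of the Sgf11 peaks on X, 29.6, 40.3 and 38.3% overlapped no Ada2b list, above the 20.1, 29.5 and 25.8% on the autosome arms in each of the 3 libraries. X therefore made up 7.29, 9.19, 10.3 and 10.98% of main-arm Ada2b peaks without any Sgf11 list, and 24.5, 23.0 and 25.6% of main-arm Sgf11 peaks without any Ada2b list. Peaks shared with 2 or more libraries of the other factor had close X shares, 15.2, 14.4, 13.5 and 16.1% in Ada2b and 15.5, 14.9 and 15.1% in Sgf11. Overlapping peaks lie on the same arm, so close shares follow in part from how these peaks were picked. On chromosome 4 no Ada2b peak was without Sgf11 in the 1530 libraries (0 of 64, 0 of 31 and 0 of 30) and 2 of 100 were in 1760_2, against 13 of 88, 44 of 132 and 16 of 76 Sgf11 peaks without Ada2b in 1377_1, 1377_2 and 1924_2. These contrasts between arms were not tested.

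Sites were then defined from reproducible peaks, seen in 3 or more of the 4 Ada2b libraries or in 2 or more of the 3 Sgf11 libraries. There were 1675 such peaks of Ada2b and 5493 of Sgf11, and joining those that overlapped gave 5650 sites. Both factors had a reproducible peak at 1449 sites, Ada2b without Sgf11 at 194 and Sgf11 without Ada2b at 4007. Of the reproducible Ada2b peaks, 88.4% overlapped a reproducible Sgf11 peak, and 27.1% of the Sgf11 peaks overlapped one of Ada2b. Many of the unshared sites still had some peak of the other factor. At 84 of the 194 Ada2b sites (43.3%) some Sgf11 library had a peak, and at 2639 of the 4007 Sgf11 sites (65.9%) some Ada2b library did, nearly always 1760_2 (2616 sites, 65.3%). That left 110 sites with Ada2b and no Sgf11 peak in any library, and 1368 with Sgf11 and no Ada2b peak in any library.

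These counts moved with the number of libraries required and with list length. With all libraries kept and 2 of each factor required, 2677 sites had both factors and 420 had Ada2b alone. Leaving out Ada2b 1530_2 or 1530_3, with 2 of the 3 remaining libraries required, gave 2662 and 2673 sites with both factors and 336 and 362 with Ada2b alone. Leaving out Sgf11 1377_2, with both remaining libraries required, gave 319 with Ada2b alone. Leaving out Ada2b 1530_1 or 1760_2, with 2 of the 3 remaining Ada2b libraries required, gave 1473 and 1449 sites with both factors and 283 and 263 with Ada2b alone. The rule was the same whichever Ada2b library was left out, so the count with both factors depended on the library. Of the sites with all 3 Sgf11 libraries, 980 had Ada2b in 1530_1 and 1760_2 only. Under the rule of 2 of 3, such sites count only while both are kept. For a single setting against the main count, the library left out and the changed rule cannot be told apart. With 1563 peaks a library, 764 sites had both factors, 410 Ada2b alone and 804 Sgf11 alone.

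Widths and arms of the site classes differed. The median width was 781 bp for sites with both factors and 517 bp for each unshared class. Of the sites on the main arms, X held 10.3% of those with Ada2b alone, 19.9% of those with Sgf11 alone and 14.8% of those with both. None of the sites with Ada2b alone was on chromosome 4, where 63 sites with Sgf11 alone and 30 with both were found. Off the main arms lay 10.3% of sites with Ada2b alone, 3.89% of sites with Sgf11 alone and 2.83% of sites with both. At sites with both factors, X held 14.4, 14.5, 13.5 and 14.1% of the main-arm peaks in Ada2b and 14.7, 14.4 and 14.4% in Sgf11. Each library was counted at those same sites, so nearly equal shares follow by construction and do not compare the factors. At sites with Sgf11 alone, X held 19.5, 19.9 and 21.2% of the main-arm peaks in the Sgf11 libraries.

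The other factors of the series were counted at the same classes. Spt3 in 2 or more of its 3 libraries was found at 38.1% of sites with Ada2b alone, 24.2% with Sgf11 alone and 74.8% with both. Non-stop in both libraries was found at 85.1, 71.5 and 95.0%, and Pol II in both libraries at 48.5, 65.3 and 71.6%, in the same order of classes. Counting as unshared only sites with no library of the other factor at all, Spt3 was at 25.5% of the 110 Ada2b sites, Non-stop at 83.6% and Pol II at 40.9%, and for the 756 sites with all 3 Sgf11 libraries and no Ada2b library the shares were 5.29, 61.5 and 62.7%. Of these 756 sites, 208 lay on X (28.5% of the 730 on main arms), against 11 of the 100 main-arm Ada2b sites.

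Joining the peaks of all 7 libraries gave 8017 sites, and the support for a site rose together in both factors. Where all 4 Ada2b libraries had a peak (1166 sites), 85.1% had all 3 Sgf11 libraries and 5.06% had none. Where a single Ada2b library had a peak (2331 sites), 41.1% had all 3 and 25.0% had none. Where all 3 Sgf11 libraries had a peak (4048 sites), 24.5% had all 4 Ada2b libraries and 18.7% had none, and of sites with a single Sgf11 library (1743) 2.64% had all 4 and 70.0% had none. The combinations of Ada2b libraries differed. At the sites with all 3 Sgf11 libraries, 980 had Ada2b in 1530_1 and 1760_2 only and 945 in 1760_2 only, whereas 1530_2 with 1530_3 and no other Ada2b library occurred at none. At the 817 sites with Ada2b and no Sgf11 library, 436 were in 1760_2 only, 90 in 1530_2 only, 59 in all 4 and 41 in 1530_2 and 1530_3 only.

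At the 992 sites with a peak in all 7 libraries the summits nearly coincided. The median summit of the Ada2b libraries lay 17.25 bp from that of the Sgf11 libraries in the median site, within 50 bp at 76.0% of sites and over 500 bp away at 37 sites (3.73%). Peaks there were 452, 357, 321.5 and 576 bp wide in Ada2b and 668.5, 769.5 and 432.5 bp in Sgf11. The order of sites by score was less alike between factors than within them. Spearman's rho of score percentiles over the 992 sites averaged 0.822 over Ada2b pairs (0.725 to 0.932), 0.888 over Sgf11 pairs (0.835 to 0.973) and 0.541 over mixed pairs (0.403 to 0.675). Sites are not independent replicates and share the limits of the lists, so these are descriptions.

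The height of the peak at each of these sites was compared by limma, on log2 fold enrichment centred on the library's median over the 992 sites. A site called higher in Ada2b has a higher enrichment relative to the median site of its libraries in Ada2b than in Sgf11, while its raw enrichment or its score percentile may still be lower in Ada2b. At an adjusted p below 0.05, 347 sites (35%) were higher and 141 sites (14.2%) were lower in Ada2b, with 356 (35.9%) and 163 (16.4%) where the centred values of the factors did not overlap. Centring did not bring the median difference to 0, since it was 0.26 over all 992 sites. The calls were made against 0 and not against that shift, which adds to the higher calls and takes from the lower ones. With quantile normalization in place of centring, 137 sites were higher and 157 lower, and with score percentiles 16 and 3, so the balance of the calls depended on the scaling.

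**Figure D5:**
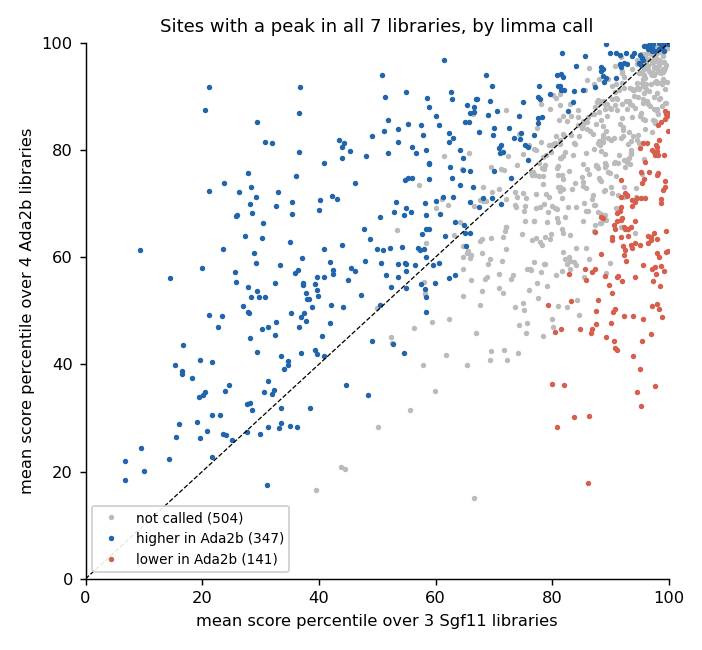
Mean score percentile over the 4 Ada2b libraries (vertical) against that over the 3 Sgf11 libraries (horizontal) at the 992 sites with a peak in every library, 1 point per site, coloured by the limma call on centred log2 fold enrichment; the dashed line marks equal percentiles. The 347 sites called higher in Ada2b spread over Sgf11 percentiles of 6.72 to 99.9 (median 53.2), and the 141 called lower lie at 79.3 to 99.9 (median 93.9). Each site needed a peak in every library, and Ada2b enrichment spans a narrower range than Sgf11 enrichment. The position of the calls along the Sgf11 axis therefore follows in part from the filter and the scale.

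On centred fold enrichment, sites on X had a different balance from those on the large autosome arms. The arms were not compared under the other scalings, and this contrast was not tested. On X, 40 of 134 sites (29.9%) were higher and 34 (25.4%) lower in Ada2b, with a median difference of -0.01. On the 4 large autosome arms 294 of 817 (36.0%) were higher and 105 (12.9%) lower, with a median of 0.29. Per library, the median centred value on X exceeded that on the large autosome arms by 0.14, 0.10, 0.07 and 0.29 on the log2 scale in Ada2b and by 0.33, 0.30 and 0.49 in Sgf11. All 7 libraries had X above the autosomes at these shared sites, and Ada2b 1760_2 was just below the lowest Sgf11 library. On chromosome 4, 5 of 24 sites were higher and 2 lower. Spt3 in 2 or more libraries was found at 74.9% of the sites called higher, 92.2% of those called lower and 79.3% of all, and Pol II in both libraries at 81.3, 87.9 and 68.9%, in the same order.

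The sites named here were picked by the fixed rule given with the methods, on the main arms, in dm3 coordinates, and what genes lie there was not analysed here. The site with the highest combined rank was chrX:3028366-3029375. Its fold enrichment was 11.6, 12.6, 11.97 and 12.2 in the Ada2b libraries and 17.7, 21.8 and 23.0 in the Sgf11 libraries, with all 7 summits within 31 bp. The next were chr3R:18181850-18182856 (mean 11.2 ± 0.389 in Ada2b, SD, n = 4, and 21.1 ± 5.52 in Sgf11, SD, n = 3), chr3L:14104332-14105115 (11.6 ± 0.581 and 19.3 ± 6.33) and chrX:17645452-17646296 (10.8 ± 0.445 and 21.9 ± 4.57). Their summits spanned 61, 24 and 38 bp. At these 4 sites both factors stood at a mean percentile above 99, and all 3 Spt3 and both Non-stop libraries had a peak. Pol II was called in 2, 1, 0 and 2 libraries, in the order the sites are given.

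The 4 strongest sites with Ada2b and no Sgf11 library had a peak in all 4 Ada2b libraries. At chr2R:15616210-15617090 the fold enrichment was 3.92, 6.51, 5.31 and 3.88 in libraries 1530_1, 1530_2, 1530_3 and 1760_2, with summits within 30 bp. At chr3R:15616492-15616888 it was 4.53, 6.63, 6.44 and 3.90, with summits within 6 bp, and chr3R:13450009-13450763 and chr2L:8541302-8541831 averaged 4.79 ± 1.12 and 4.87 ± 1.31 (SD, n = 4). In this class libraries 1530_2 and 1530_3 had the higher enrichment and 1530_1 and 1760_2 the lower. Non-stop was called at all 4 in both of its libraries, and no Spt3 and no Pol II library had a peak there.

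Of the 4 strongest sites with all 3 Sgf11 libraries and no Ada2b library, 3 lay on X. The fold enrichment was 11.8, 17.3 and 19.2 in libraries 1377_1, 1377_2 and 1924_2 at chrX:1235744-1236476, with summits within 6 bp, and 10.7, 18.0 and 17.9 at chrX:8346094-8346717, with summits within 9 bp. The others were chr2L:10989096-10989679 (13.8 ± 5.06, SD, n = 3) and chrX:14732919-14733959 (13.1 ± 2.92). At each of the 4 sites the enrichment was lower in 1377_1 than in 1377_2. Both Non-stop and both Pol II libraries and 1 Spt3 library had a peak at 3 of them, and none of these did at chrX:8346094-8346717.

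The largest relative excess of Ada2b was at chr2R:15612839-15613961, where the fold enrichment was 5.12, 7.38, 8.52 and 4.85 in Ada2b and 2.23, 2.89 and 3.73 in Sgf11 (centred log2 difference of 2.53 ± 0.37, SE, limma adjusted p = 0.000542). Here Ada2b was higher on the raw scale too, in contrast to the strongest shared sites. The neighbouring site chr2R:15614136-15615952 followed, with means of 6.78 ± 2.11 in Ada2b (SD, n = 4) and 3.71 ± 0.985 in Sgf11 (SD, n = 3) and a difference of 2.25 ± 0.39 (SE, limma adjusted p = 0.00102). The site chr2R:15616210-15617090 with Ada2b and no Sgf11, described above, begins 257 bp after it, so 3 of the named sites lay within 4252 bp of 2R. The others with the highest differences were chr2R:9317437-9319893 (2.25) and chr3R:18222074-18223666 (1.99).

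The largest relative deficit of Ada2b was at chr2R:8756675-8758066, with fold enrichments of 2.29, 2.29, 1.90 and 3.26 in Ada2b and 14.1, 16.6 and 16.9 in Sgf11 (centred log2 difference of -1.33 ± 0.16, SE, limma adjusted p = 0.000262). There Ada2b stood at a mean percentile of 32.2 and Sgf11 at 95.3. The others were chr2L:6966288-6968578 (-1.32), chrX:20987744-20988536 (-1.22) and chr3L:14624878-14625953 (-1.21), where Ada2b averaged 2.56 ± 0.457, 3.35 ± 0.468 and 2.59 ± 0.563 (SD, n = 4) and Sgf11 17.1 ± 3.92, 20.8 ± 4.28 and 16.2 ± 5.01 (SD, n = 3). Spt3 was called there in all 3 of its libraries and Non-stop in both. At each of them the Ada2b peak was highest in 1760_2.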

How the data were processed

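Peak lists of 4 Ada2b and 3 Sgf11 ChIP libraries were compared, and the lists of Spt3, Non-stop and Pol II were used only to annotate sites. Total chromatin libraries had no list and were not used on their own. Per the labels and the methods, the authors processed 50-bp single reads with CASAVA 1.8.2, mapped them to dm3 with bowtie (reads with a few possible places were retained) and called peaks per library with MACS2 at default settings. The control used in peak calling is not given in the sources used here. The deposited score is a whole number derived from the q-value, the deposited fold enrichment is a ratio over the background of MACS2, and the deposited −log10 q had a minimum of 2.06 to 2.29 in Ada2b lists and 2.02 to 2.25 in Sgf11 lists. Other deposited columns gave the start, the end and the summit. No read counts were given, so depth is unknown and intervals were not computed.

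Peaks were used as called. Intervals were handled in Python 3.11.15 with NumPy 2.4.6 and pandas 2.3.3, which matched bedtools 2.31.1 in all 42 ordered pairs of lists. Library values were tested by exact two-sided permutation (35 relabellings, Benjamini-Hochberg over 11 tests), and sites with limma 3.58.1 in R 4.3.3, tested on simulated data. Reproducible peaks followed the rule in the study's methods. Alternatives left out each library and changed list length (1563 peaks), q limit (−log10 q of 5), overlap (50%), summit windows (200 bp) and site scaling. Named sites, on the main arms, were the 4 with the highest mean of both factors' mean score percentiles among sites in all 7 lists, the 4 strongest with 3 or more Ada2b and no Sgf11 lists, the 4 strongest with 3 Sgf11 and no Ada2b lists, and the 4 highest and 4 lowest differences past the limma threshold. Members, lists and tests were chosen with earlier results of these data known, and the descriptions of strong unshared peaks, of arms and of lists of equal length per library were chosen after seeing the data. Coordinates are 1-based. Figures were drawn with matplotlib 3.10.9.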

Additional observations from a re-analysis of the deposited data

How the results depend on the processing

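Of 188 alternative values for 16 results, 160 kept their direction and their side of the threshold (counts: stayed within 1.5 times), 20 counts moved and 8 values changed sign. With 1 library left out, no exact permutation p below 0.05 could be reached, so the side of the threshold was fixed for those library tests. The 160 also hold the difference between directions at equal length, which kept its sign but fell from 38.5 to 0.922 points. The sign changes were in differences near 0. The off-arm share ran from -0.614 to 0.632 points and the chromosome 4 share from -0.0288 to 0.331 points with 1 library left out. The score contrast ran from -9.93 to 3.80 points with 1 library left out, was 3.91 points with 1563 peaks a library and 4.14 points when 1 library of the other factor was enough. No library test passed 0.05 after adjustment under any alternative. Sites with both factors numbered 1339 to 2673 with 1 library left out, 764 with lists of equal length, 2677 when 2 libraries of each factor were enough and 4172 when a single peak in any library of a factor counted as present. Sites with Ada2b alone were 244 to 362, 410, 420 and 110 under the same settings, and those with Sgf11 alone were 2781 to 4021 with 1 library left out, 804 with equal length and 1368 under the last. For limma, lists of equal length gave 132 sites higher and 86 lower of 520, score percentiles 16 and 3, quantile normalization 137 and 157, and sites in 3 or more Ada2b and 2 or more Sgf11 lists 546 and 231 of 1452. With 1 library left out, 293 to 396 were higher and 109 to 155 lower. The base pairs covered differed by -1.26 on the log2 scale in whole lists and by -0.42 at equal length.

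No paired analysis was possible because Ada2b and Sgf11 libraries share no library number. Depth is unknown, the minimum of the peak caller limits what counts as absent, and 4 against 3 libraries cannot give an exact permutation p under 0.0286, or 0.0667 and 0.1 with a library left out. Factor, antibody and library set cannot be told apart.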
